A study of Mus musculus with 384 samples.

Results

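Of the 40594 genes present in both deposited tables, 9 genes of the kidney's collecting duct and injured tubules were followed across single sorted cells: Aqp2, Fxyd4, Atp1b1, Car2, Klk1, Krt18, Wfdc2, Lcn2 and Clu. They were picked by name, with their levels in these same wells known, so the levels below are a description and carry no test. The cells came from kidneys of mice aged 8 weeks and were sorted one per well in a single-cell FACS-seq protocol, in which each well becomes its own library. PDGFRB+ cells fell into a CD45+ gate and a CD45- gate. For each gate, 1 plate of 96 wells was filled in batch 1 and again in batch 2, 4 plates in total. PDGFRB is a receptor of pericytes and fibroblasts, and CD45, the product of Ptprc, is a surface phosphatase of leukocytes. Every group was thus defined as PDGFRB+. The labels name no strain, genotype, animal or treatment, and the well names carry an abbreviation (UUO) that they do not spell out. Each plate was therefore treated as 1 sample, and no p-value was made from cells.

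Of 384 wells, 368 with at least 10000 reads and 500 genes were kept. The wells held 5323 to 1246070 reads, and the plate medians of kept wells lay between 225559 and 288818 reads. Levels within a well are given as CPM, reads per 1000000 reads on genes in that well. A gene was called present in a well at 100 CPM or more, counted in the 315 kept wells of at least 50000 reads, where 100 CPM is at least 5 reads. These were 76 CD45+ and 79 CD45- wells in batch 1, and 78 CD45+ and 82 CD45- wells in batch 2. Reads of the sorted markers reached this level in a minority of wells. Pdgfrb was present in 0 of 76 CD45+ and 23 of 79 CD45- wells of batch 1, and in 1 of 78 CD45+ and 20 of 82 CD45- wells of batch 2. Ptprc was present in 25 and 20 CD45+ wells of batches 1 and 2 and in 0 CD45- wells of either batch. The PDGFRB+ label of the CD45+ gate was thus met by Pdgfrb at 100 CPM or more in 1 of its 154 wells, and some others held reads under that level.

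The collecting duct is the last stretch of the nephron, where urine is concentrated. Its principal cells take up water through aquaporin-2 (Aqp2), a channel moved to the cell surface under vasopressin, and sodium through the epithelial sodium channel. The sodium pump, of which Atp1b1 encodes the beta subunit, drives that uptake, and Fxyd4 encodes a small regulator of the pump that is typical of this segment. Intercalated cells, the other main cell type of the duct, secrete acid or base and depend on carbonic anhydrase II (Car2). Klk1 encodes tissue kallikrein, a protease made mainly in the connecting tubule. Krt18 encodes a keratin of simple epithelia. Wfdc2 encodes a secreted protease inhibitor of many epithelia, Lcn2 an iron-siderophore carrier that injured tubules release, and Clu the secreted chaperone clusterin, which rises in damaged tubules.

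Wells at 100 CPM or more, from 10 (Fxyd4) to 93 (Clu) of 315, carried nearly all reads of each of the 9 genes. Over the 9 genes, 256 values reached 100 CPM, 126 of them 1000 CPM, and the wells at 100 CPM or more held between 95.9% (Atp1b1) and 98.0% (Clu) of the reads of the gene in wells of at least 50000 reads. The lowest value counted as present was 100.4 CPM (Fxyd4) and the highest left out was 98.8 CPM (Clu). At the level of whole plates, 1 well alone held between 24.4% and 97.6% of a gene's reads, and at least 50% in 26 of the 36 combinations of gene and plate. The plot of every well shows wells far above the line, more of them for Clu than for the other genes, and a broad low band under it.

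**Figure D1:**
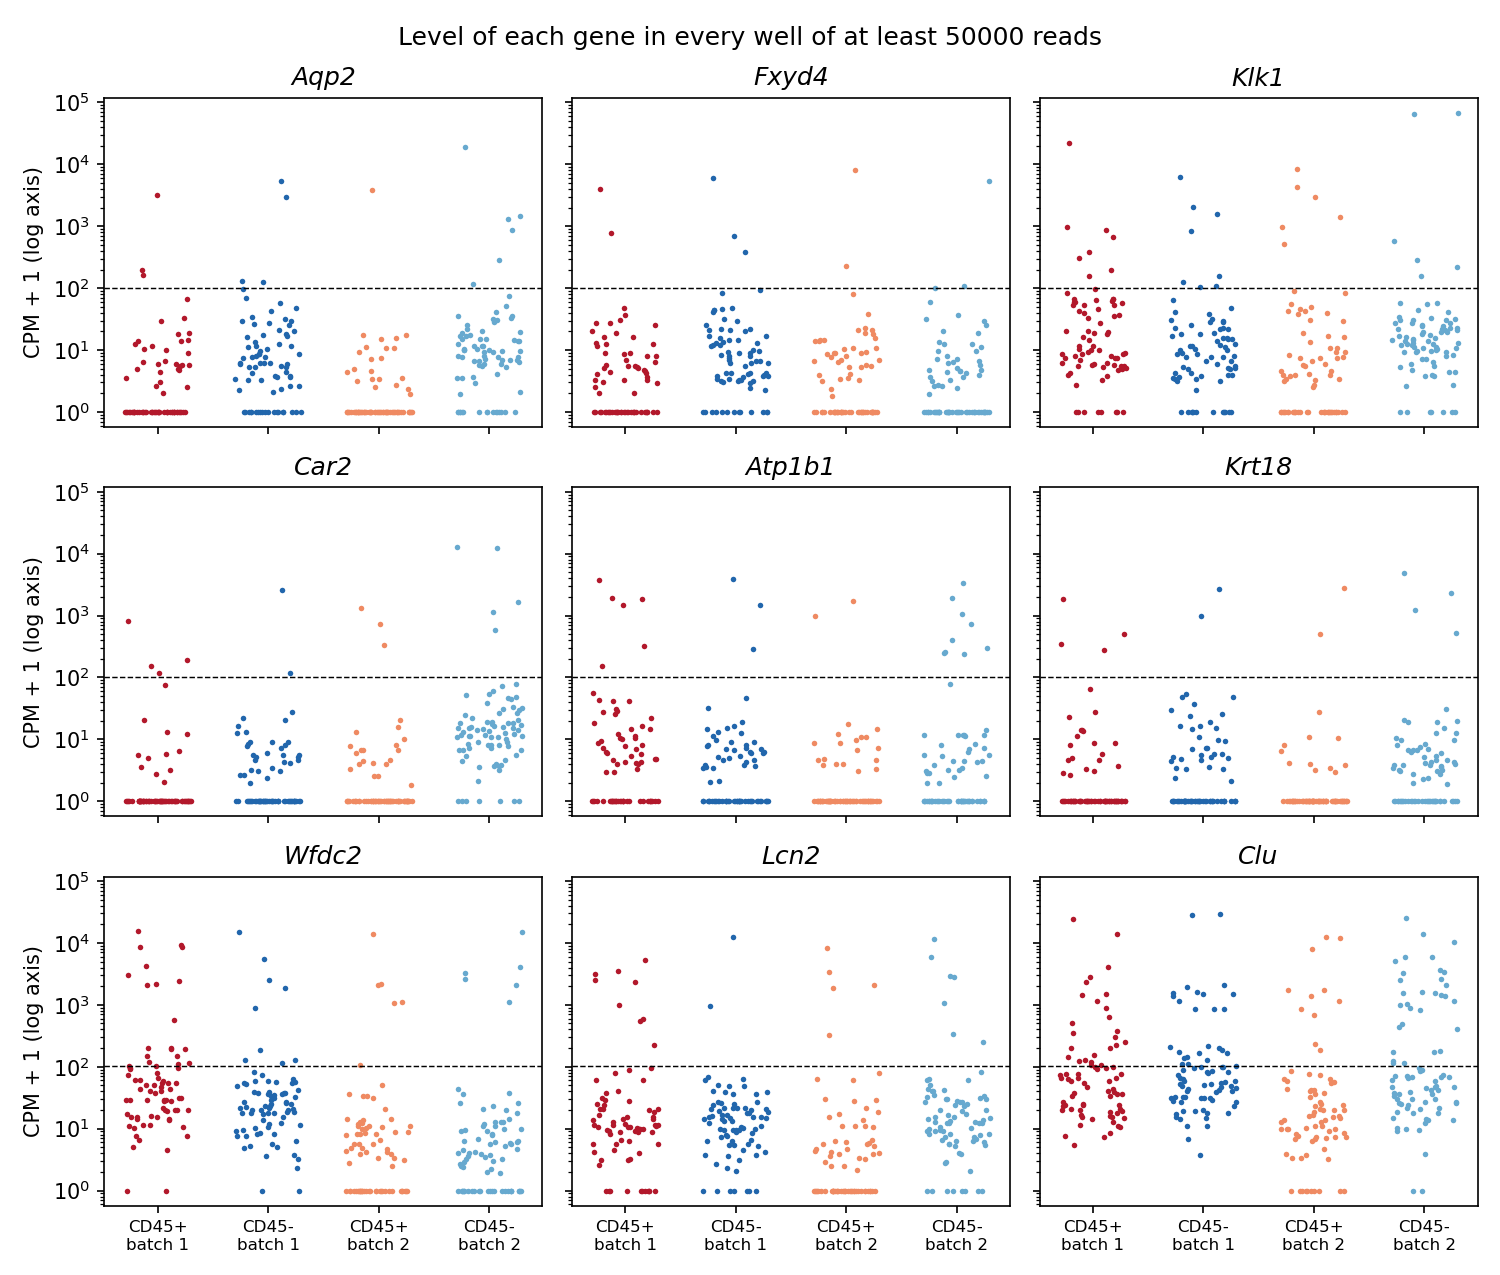
CPM + 1 on a log axis of each of the 9 genes in every well of at least 50000 reads (1 point per well, spread sideways at random), by plate; the dashed line marks 100 CPM. Aqp2, Fxyd4, Car2, Atp1b1 and Krt18 pass the line in 1 to 9 wells of a plate, while Clu passes it in 11 to 31.

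Among the scarce genes, Aqp2 and Fxyd4 shared wells about as closely as Atp1b1 and Krt18 did. The stretches just upstream of the Aqp2 and Fxyd4 transcript starts are printed here because the pair recurs through the results. RefSeq promoter sequences (build GRCm38.p6) were matched for 7 of the 9 genes by symbol. The 250 bases before the start are printed 5′ to 3′ on the strand of the gene, chr15:99578806-99579055 (plus strand) for Aqp2 and chr6:117937336-117937585 (minus strand) for Fxyd4.
Aqp2: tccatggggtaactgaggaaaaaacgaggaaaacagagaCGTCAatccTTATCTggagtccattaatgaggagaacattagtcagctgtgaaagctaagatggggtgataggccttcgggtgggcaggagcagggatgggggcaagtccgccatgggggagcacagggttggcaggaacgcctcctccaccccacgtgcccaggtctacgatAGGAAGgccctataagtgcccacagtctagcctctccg
Fxyd4: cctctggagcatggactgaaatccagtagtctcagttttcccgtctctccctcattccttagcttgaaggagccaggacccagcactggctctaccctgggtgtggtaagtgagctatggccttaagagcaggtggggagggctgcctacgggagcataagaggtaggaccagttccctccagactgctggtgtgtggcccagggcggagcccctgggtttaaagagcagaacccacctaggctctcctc
Capitals mark matches, on either strand, to 4 short motifs. The core of the cyclic AMP response element was searched as TGACG. The letters AGATAA stood for a site bound by GATA factors. For ETS factors the core was AGGAAG. The TATA box was searched as TATAAA. In Aqp2 the first 3 matched, beginning 211, 202 and 38 bases before the start, with the first 2 on the opposite strand. No motif matched in the Fxyd4 window. Of 27025 promoters of the same length, 17.9% held the cyclic AMP core, 10.3% the GATA site, 29.2% the ETS core and 12.97% the TATA box, and a match describes the letters only.

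Aqp2 reached 100 CPM in 3 of 76 CD45+ wells and 4 of 79 CD45- wells in batch 1, and in 1 of 78 CD45+ wells and 6 of 82 CD45- wells in batch 2. The CD45+ wells held 3236, 194 and 161 CPM in batch 1 and 3858 CPM in batch 2. The CD45- wells held 5451, 2933, 128 and 125 CPM in batch 1 and 18821, 1477, 1294, 855, 284 and 116 CPM in batch 2. The values of the gates overlapped, and every plate had at least 1 well above 1000 CPM. Summed over the plate, Aqp2 stood at 82.02 CPM in CD45+ and 182 CPM in CD45- wells of batch 1, and at 65.4 CPM in CD45+ and 365 CPM in CD45- wells of batch 2. The log2 ratio of CD45+ over CD45-, taken on CPM plus 1, was -1.14 in batch 1 and -2.46 in batch 2. Without CD45+ well C7 the batch 1 ratio was -3.79, which would bring Aqp2 past 4-fold in both batches, and without CD45- well D7 it was 1.27. The batch 2 ratio was -7.15 without CD45+ well A11 and 0.18 without CD45- well D4.

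Fxyd4 was present in 2 CD45+ and 3 CD45- wells of batch 1 and in 2 CD45+ and 3 CD45- wells of batch 2. The CD45+ values were 4025 and 778 CPM in batch 1 and 8031 and 227 CPM in batch 2. The CD45- values were 5913, 699 and 378 CPM in batch 1 and 5415, 107 and 100.4 CPM in batch 2. Among wells of at least 50000 reads, each plate thus had exactly 1 well above 1000 CPM. Among those wells it was also the one with the most Aqp2 on its plate: C7 and A11 in the CD45+ gate and D7 and D4 in the CD45- gate. A kept well under 50000 reads, CD45- well D5 of batch 1, held 10400 CPM of Fxyd4, 1242 CPM of Aqp2 and 1630 CPM of Klk1. Plate levels were 111 CPM in CD45+ and 178 CPM in CD45- wells of batch 1, and 139 CPM in CD45+ and 92.96 CPM in CD45- wells of batch 2. The log2 ratios of CD45+ over CD45- were -0.68 and 0.58 in batches 1 and 2, and both changed sign without 1 well. Without CD45- well D7 the batch 1 ratio was 2.65, and without CD45+ well C7 it was -2.81. The batch 2 ratio was -3.73 without CD45+ well A11 and 4.71 without CD45- well D4.

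Atp1b1 was present in 6 CD45+ and 3 CD45- wells of batch 1 and in 2 CD45+ and 9 CD45- wells of batch 2. In batch 1 its positive CD45+ wells ranged from 149 to 3682 CPM around a median of 1665 CPM, against 287, 1466 and 3850 CPM in CD45- wells. In batch 2 they held 992 and 1721 CPM in the CD45+ gate, while the CD45- wells ranged from 237 to 3369 CPM around a median of 403 CPM. Plate levels were 163 CPM in CD45+ and 52.9 CPM in CD45- wells of batch 1, and 42.3 CPM in CD45+ and 70.9 CPM in CD45- wells of batch 2. Its log2 ratios were 1.60 and -0.73, and both kept their sign without any single well. The largest moves were to 2.75 without CD45- well F8 of batch 1 and to -2.26 without CD45+ well A11 of batch 2.

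Car2 passed 100 CPM in 4 CD45+ and 2 CD45- wells of batch 1 and in 3 CD45+ and 5 CD45- wells of batch 2. The CD45+ wells held 821, 191, 150 and 116 CPM in batch 1 and 1326, 725 and 337 CPM in batch 2. The CD45- wells held 2623 and 118 CPM in batch 1 and 12616, 12178, 1665, 1131 and 583 CPM in batch 2. The highest CD45- well of batch 1 and the 3 highest of batch 2 lay above all CD45+ wells of their batch, and the rest overlapped. Plate levels were 29.3 CPM in CD45+ and 75.9 CPM in CD45- wells of batch 1, and 33.1 CPM in CD45+ and 340 CPM in CD45- wells of batch 2. Batches 1 and 2 gave log2 ratios of -1.34 and -3.32. Without CD45+ well D2 the batch 1 ratio was -2.41, which would bring Car2 past 4-fold in both batches, and without CD45- well D7 it was 2.53. The batch 2 ratio was -4.79 without CD45+ well A11 and -1.96 without CD45- well A5.

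Klk1 was present in 8 CD45+ and 8 CD45- wells of batch 1 and in 6 CD45+ and 6 CD45- wells of batch 2. Positive CD45+ wells ranged from 156 to 22254 CPM in batch 1 (median 529 CPM) and from 517 to 8492 CPM in batch 2 (median 2218 CPM). Positive CD45- wells ranged from 105 to 6313 CPM in batch 1 (median 506 CPM) and from 157 to 67633 CPM in batch 2 (median 425 CPM). In CD45- wells G6 and H12 of batch 2, Klk1 reached 67633 and 65746 CPM, and the next CD45- well of that plate had 570 CPM. Plate levels were 418 CPM in CD45+ and 232 CPM in CD45- wells of batch 1, and 218 CPM in CD45+ and 526 CPM in CD45- wells of batch 2. From these, log2 ratios of 0.85 and -1.27 followed. The batch 1 ratio was -2.04 without CD45+ well G8 and 2.76 without CD45- well D7, and the batch 2 ratio was -2.12 without CD45+ well G11 and -0.10 without CD45- well H12. With wells weighted equally in place of summed reads, the batch 2 ratio was -2.73.

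Krt18 was present in 4 CD45+ and 2 CD45- wells of batch 1 and in 2 CD45+ and 4 CD45- wells of batch 2. The CD45+ wells held 1831, 508, 345 and 278 CPM in batch 1 and 2780 and 505 CPM in batch 2. The CD45- wells held 2637 and 975 CPM in batch 1 and 4884, 2310, 1250 and 526 CPM in batch 2. The gates overlapped in both batches. Plate levels were 49.6 CPM in CD45+ and 52.5 CPM in CD45- wells of batch 1, and 52.95 CPM in CD45+ and 114 CPM in CD45- wells of batch 2. Log2 ratios were -0.08 and -1.09. The first was 0.88 without CD45- well D7 and -0.65 without CD45+ well D10, and the second was 1.21 without CD45- well F1 and -3.84 without CD45+ well A11.

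The secreted products reached more wells. Wfdc2 was present in 21 of 76 CD45+ wells (27.6%, exact Clopper-Pearson 95% interval 17.99% to 39.1%, counting error only) and 9 of 79 CD45- wells (11.4%, 5.34% to 20.5%) of batch 1. In batch 2 it was present in 6 of 78 CD45+ and 6 of 82 CD45- wells. Its positive wells reached 15438 and 13998 CPM in the CD45+ gate of batches 1 and 2 and 14886 and 14899 CPM in the CD45- gate. In batch 1 the median positive CD45+ well had 202 CPM, against 874 CPM in CD45- wells, and in batch 2 the medians were 1607 CPM in CD45+ and 2966 CPM in CD45- wells. Plate levels were 1166 CPM in CD45+ and 566 CPM in CD45- wells of batch 1, and 242 CPM in CD45+ and 175 CPM in CD45- wells of batch 2. The log2 ratios were 1.04 and 0.46. The first was 0.31 without CD45+ well C8 and 2.37 without CD45- well B3. The second was -1.15 without CD45+ well G11 and -0.37 with wells weighted equally.

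Lcn2 was present in 9 CD45+ and 2 CD45- wells of batch 1 and in 5 CD45+ and 7 CD45- wells of batch 2. Positive CD45+ wells ranged from 224 to 5206 CPM in batch 1 (median 2322 CPM) and from 326 to 8417 CPM in batch 2 (median 2107 CPM). The CD45- wells held 12249 and 967 CPM in batch 1 and ranged from 247 to 11768 CPM in batch 2 (median 2786 CPM). The highest Lcn2 wells were in the CD45- gate in both batches, and the other values overlapped. Lcn2 is also a product of neutrophils. The highest CD45+ well of batch 2, H1, had none of the other 8 genes at 100 CPM, and its 10 listed neutrophil genes summed to 58232 CPM, against 13.8 CPM for epithelial genes. In the other 13 CD45+ wells with Lcn2 the neutrophil sum was at most 106 CPM, and in the 9 CD45- wells it was at most 4.39 CPM. Of the CD45+ wells with neutrophil sums of at least 1000 CPM, Lcn2 was present in 0 of 12 in batch 1 and 1 of 4 in batch 2. Plate levels were 355 CPM in CD45+ and 328 CPM in CD45- wells of batch 1, and 132 CPM in CD45+ and 388 CPM in CD45- wells of batch 2. The log2 ratios were 0.12 and -1.55, and the first was -0.34 without CD45+ well D2 and 3.01 without CD45- well B3. The second was -2.30 without CD45+ well A11 and -0.35 without CD45- well F1.

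Clu was the most widespread of the 9, present in 25 of 76 CD45+ and 26 of 79 CD45- wells of batch 1 and in 11 of 78 CD45+ and 31 of 82 CD45- wells of batch 2. In shares this was 32.9% in each gate of batch 1, and 14.1% (7.26% to 23.8%) of CD45+ and 37.8% (27.3% to 49.2%) of CD45- wells of batch 2. Positive CD45+ wells had medians of 356 and 1379 CPM and reached 24363 and 12220 CPM in batches 1 and 2. Positive CD45- wells had medians of 538 and 1458 CPM and reached 29757 and 25128 CPM. Plate levels were 1282 CPM in CD45+ and 1088 CPM in CD45- wells of batch 1, and 548 CPM in CD45+ and 1202 CPM in CD45- wells of batch 2. The log2 ratios were 0.24 and -1.13, and the first was -1.02 without CD45+ well C8 and 1.51 without CD45- well B3. The second was -1.75 without CD45+ well A11 and -0.43 without CD45- well F1. With wells weighted equally the batch 1 ratio of Clu was -0.36.

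**Figure D2:**
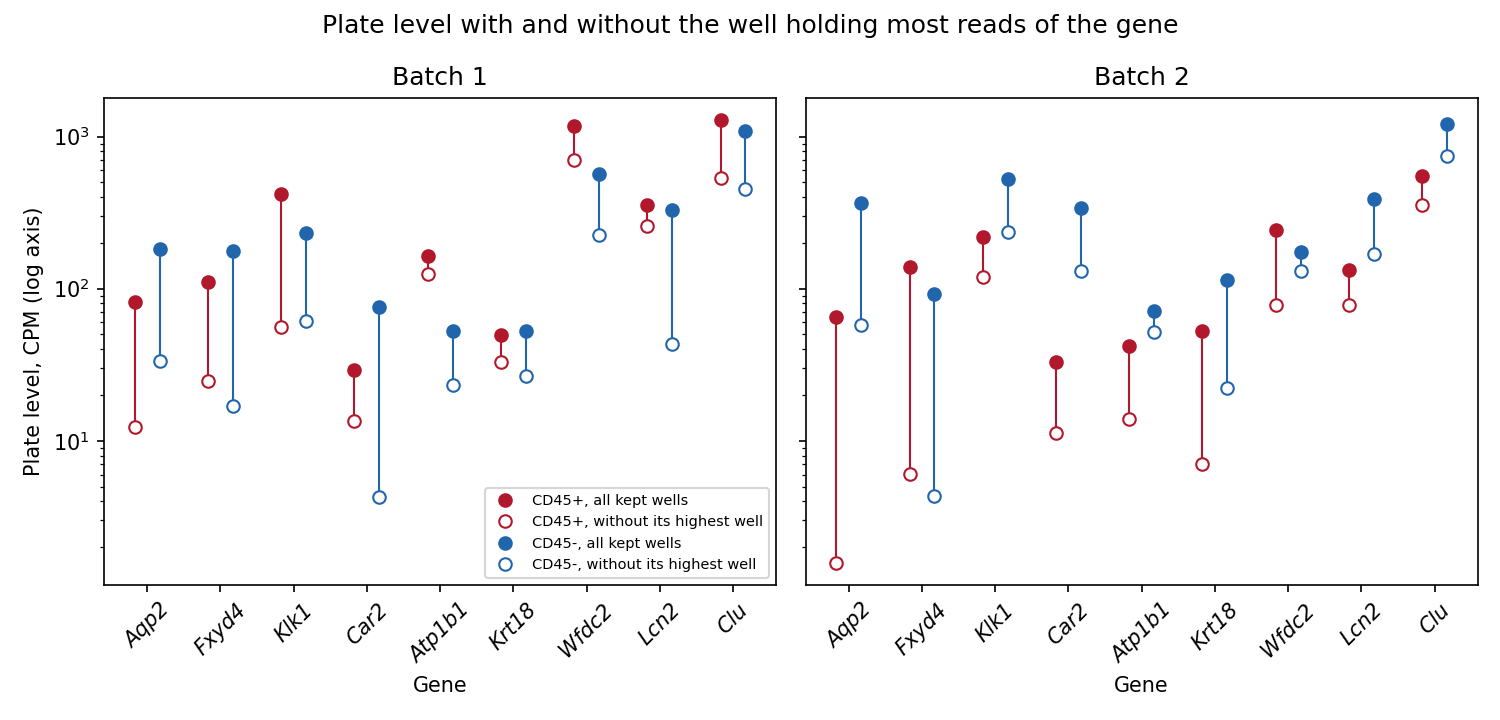
Plate level in CPM (log axis) of each gene in CD45+ (red, left) and CD45- wells (blue, right) of both batches, over all kept wells (filled) and without the single well holding most reads of that gene (open). For Aqp2 in CD45+ wells of batch 2 the level is 65.4 CPM over all wells and 1.57 CPM without its highest well.

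By the rule of a 4-fold difference in the same direction in both batches, 0 of the 9 genes differed between the gates. Over all 40594 genes, 1.37% were higher in CD45+ and 4.1% were higher in CD45- by that rule. The median log2 ratio of the 9 genes was 0.12 in batch 1 and -1.13 in batch 2, beside -0.39 and -0.56 for the 12882 genes of at least 1 CPM on average. Fxyd4, Klk1, Atp1b1, Lcn2 and Clu had ratios of opposite sign in the 2 batches, and Aqp2, Car2, Krt18 and Wfdc2 had ratios of 1 sign. Of the 18 ratios, 11 changed sign when 1 well was left out. With TMM factors of edgeR, which moved the median ratio of those 12882 genes by 0.29 and 0.46, the Krt18 ratio of batch 1 was 0.32, of the other sign.

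The genes met in the same wells. A well was called co-positive where at least 3 of the 9 were at 100 CPM or more, which took 29 of 315 wells (9.21%, 6.25% to 12.95%). They were 7 of 76 CD45+ and 5 of 79 CD45- wells in batch 1, and 4 of 78 CD45+ and 13 of 82 CD45- wells in batch 2. Of the other wells, 182 had none of the genes at that level, 82 had 1 and 22 had 2. Exactly 3 genes were present in 13 of the co-positive wells, and all 9 were present in 1 well, D7 of the CD45- gate of batch 1. Together the 9 genes took between 0.0446% and 9.97% of a co-positive well's reads. Co-positive CD45+ wells had a median of 471284 reads, against 291185 in the other CD45+ wells, and co-positive CD45- wells had 257253 reads, against 346950 in the other CD45- wells. Co-positive wells were thus the deeper ones in the CD45+ gate and the shallower ones in the CD45- gate. After thinning each well to 50000 reads, 15 CD45+ and 17 CD45- wells were co-positive.

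Pairs of genes differed in how closely they met. Aqp2 and Fxyd4 were present together in 8 wells, 57.1% of the 14 Aqp2 wells and 80% of the 10 Fxyd4 wells. Atp1b1 and Krt18 met in 10 wells, 50% of the 20 Atp1b1 wells and 83.3% of the 12 Krt18 wells. Aqp2 and Klk1 met in 2 wells, 14.3% of Aqp2 wells and 7.14% of the 28 Klk1 wells. Car2 and Klk1 also met in 2 wells. Wfdc2 and Clu met in 31 wells, 73.8% of the 42 Wfdc2 wells and 33.3% of the 93 Clu wells, and Clu was present in 11 of the 12 Krt18 wells and 18 of the 20 Atp1b1 wells. Fxyd4 and Krt18 were present in no well without another of the 9, whereas Klk1 was the only one present in 11 of its 28 wells and Clu in 48 of its 93.

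**Figure D3:**
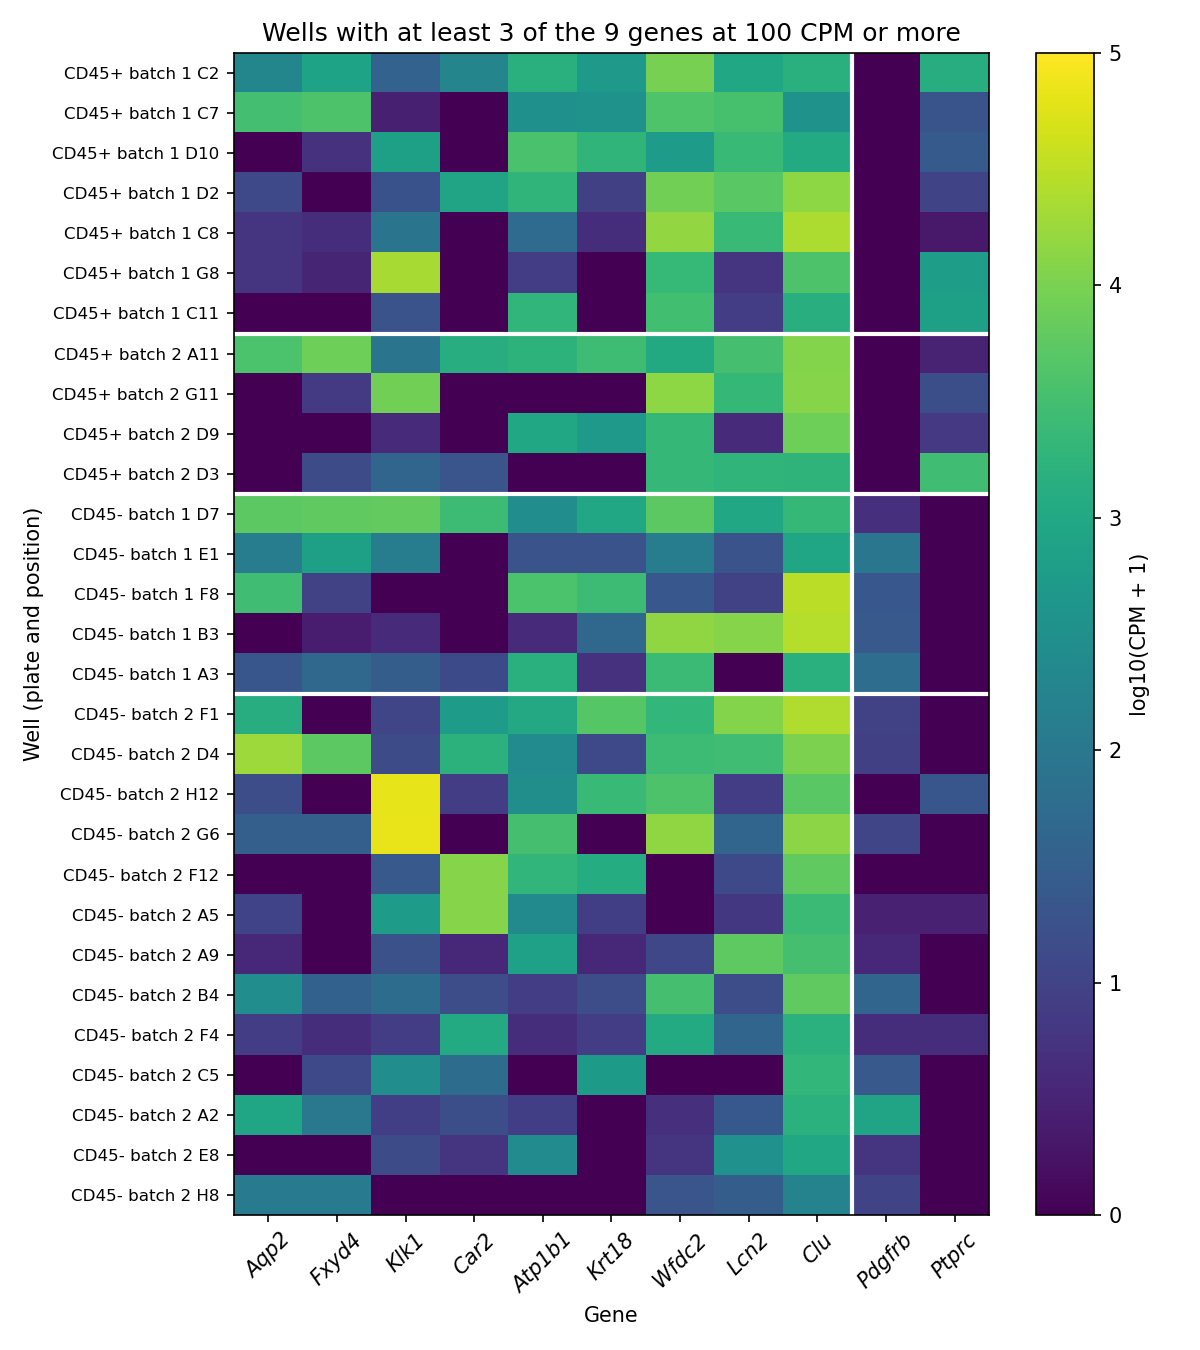
Heat map of log10(CPM + 1) of the 9 genes, Pdgfrb and Ptprc (columns) in the 29 co-positive wells (rows), CD45+ wells above CD45- wells and white lines between plates. Aqp2 and Fxyd4 are high together in CD45+ wells C7 and A11 and CD45- wells D7 and D4, Klk1 is highest in CD45- wells H12 and G6, and Car2 in CD45- wells F12 and A5.

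The co-positive wells were not of 1 kind, as their other segment markers show. The 4 wells with the most Aqp2 and Fxyd4 held further genes listed for principal cells. CD45+ well A11 had 2559 CPM of Kcne1, a potassium channel subunit, and 1110 CPM of Scnn1g, a subunit of the epithelial sodium channel. CD45- well D4 had 3304 CPM of Aqp3, the water channel of the opposite cell face, 2204 CPM of the potassium channel gene Kcnj1 and 1387 CPM of Hsd11b2, the enzyme that inactivates glucocorticoids in aldosterone target cells. CD45- well D7 had 1272 CPM of Aqp3, and also 17245 CPM of S100g, a calcium-binding protein of the distal nephron, beside its 6313 CPM of Klk1. Genes listed for intercalated cells were present in D4 and D7 too. Rhcg stood at 2075 CPM in D4 and 1383 CPM in D7, and Foxi1 at 538 CPM in D4. In CD45+ wells A11 and C7 the intercalated cell genes summed to 0 and 59.3 CPM.

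The 2 wells with the most Car2 carried genes listed for intercalated cells. CD45- well A5 had 15136 CPM of Atp6v1g3 and 3243 CPM of Atp6v0d2, both subunits of the proton pump, and 2100 CPM of Slc4a1, an anion exchanger. CD45- well F12 had 7414 CPM of Atp6v1g3, 1551 CPM of Atp6v0d2 and 1392 CPM of Rhcg, an ammonia channel. In both wells Fxyd4 and Wfdc2 were at 0 CPM, and Aqp2 was at 9.11 CPM in A5 and 0 CPM in F12. Other genes listed for principal cells were present in both. A5 had 1428 CPM of Tfcp2l1, 667 CPM of Scnn1a and 499 CPM of Scnn1b, and F12 had 649 CPM of Aqp3 and 118 CPM of Tfcp2l1. CD45- well F4 had Car2 at 1131 CPM beside 181982 CPM of Gpx3, which is listed for the proximal tubule.

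The wells with the most Klk1 differed from one another in turn. CD45+ well G8 held 26157 CPM of S100g beside 22254 CPM of Klk1. CD45- well H12 held 1687 CPM of S100g and 2494 CPM of Scnn1b, another sodium channel subunit, and CD45- well G6 held 3112 CPM of the keratin gene Krt7. CD45- well A3 of batch 1, with Atp1b1 at 1466 CPM and Wfdc2 at 2541 CPM, had 9467 CPM of Slc12a3, the salt carrier of the distal convoluted tubule, and Klk1 there was 28.5 CPM.

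A further set of wells was led by Clu, Wfdc2 and Lcn2 with little Aqp2. CD45+ well C8 had 24363 CPM of Clu, 15438 CPM of Wfdc2 and 2472 CPM of Lcn2, with Aqp2 at 4.81 CPM. CD45- well B3 of batch 1 had 27793 CPM of Clu, 14886 CPM of Wfdc2 and 12249 CPM of Lcn2, with Aqp2 at 0 CPM. Both also held Spp1, the secreted phosphoprotein osteopontin, at 39040 CPM in C8 and 40996 CPM in B3. CD45- well F1 of batch 2 joined high Lcn2 (11768 CPM) and Clu (25128 CPM) to 1294 CPM of Aqp2 and the highest Krt18 of all wells, 4884 CPM. Havcr1, which encodes the injury marker KIM-1, was at most 2.92 CPM in the 29 wells. Other co-positive CD45- wells carried few epithelial reads. Well A2 of batch 2 had stromal genes summing to 16718 CPM and endothelial genes to 5325 CPM, against 96.7 CPM of epithelial genes. Well E1 of batch 1 had 12269 CPM of stromal and 76732 CPM of red blood cell genes, against 107 CPM of epithelial genes, and well H8 of batch 2 had 8617 CPM of endothelial and 116 CPM of epithelial genes. Some of these values rested on few reads. Well E1 held 7 reads each of Aqp2, Klk1 and Wfdc2, and well H8 held 12, 11 and 18 reads of Aqp2, Fxyd4 and Clu. At 200 CPM, 15 of the 18 CD45- wells stayed co-positive, and A2, E1 and H8 did not. The 29 wells were thus of several kinds, and they are called co-positive here and not collecting duct cells.

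Spp1, Tmem213, Fxyd2 and Ldhb were among the genes higher in co-positive wells than in the other wells of both gates. Called higher at 4-fold or more in both batches were 0.441% of genes (179) in the CD45+ gate and 0.532% (216) in the CD45- gate. Of these, 47 were called in both gates, 26.3% of the CD45+ and 21.8% of the CD45- calls. The wells were chosen by 9 genes of the same profiles, so these counts are no test, and all 9, which fixed the choice, were among the calls of each gate. Among the 15 genes with the largest ratio that were at 100 CPM or more in at least 50% of the co-positive wells, 7 were named in both gates: Spp1, Tmem213, Cystm1, Ldhb, Mgst1, Fxyd2 and S100a1. By the 4-fold rule 13 of the 15 were called in the CD45+ gate and 11 of 15 in the CD45- gate.

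In the CD45+ gate the largest ratio among genes at this level in at least 50% of the co-positive wells was that of Cldn7, a tight junction claudin, at 100 CPM or more in 7 of 11 co-positive wells and 0 of 143 other wells. Its log2 ratio was 6.77 in batch 1 and 6.84 in batch 2, and 3.04 in batch 2 without well A11. Spp1 was present in 11 of 11 co-positive and 79 of 143 other CD45+ wells, with log2 ratios of 4.83 and 5.26 (4.52 in batch 2 without well G11). Fxyd2, the gamma subunit of the sodium pump, was present in 11 of 11 and 72 of 143 wells, with log2 ratios of 3.68 and 4.14 that were 2.37 without well C8 and 2.52 without well G11. The other genes named in that gate were Tmem52b, Gstt1, Tspan8, Mal, Rabac1, Tsc22d1 and Hes1. Without well G11 the calls of Mal (batch 2 log2 ratio -5.86, against 2.50 with it) and Tsc22d1 (1.81, against 2.40) ended, and Rabac1 and Hes1 were not called.

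In the CD45- gate Tmem213, a membrane protein gene, was present in 12 of 18 co-positive wells and 0 of 143 other wells, with log2 ratios of 7.45 and 7.75 (6.66 in batch 1 without well B3). Cdh16, the kidney cadherin, was present in 9 of 18 and 3 of 143 wells, with log2 ratios of 4.58 and 6.77 (3.52 in batch 1 without well F8). Pdzk1ip1 was present in 9 of 18 and 4 of 143 wells, with log2 ratios of 5.24 and 6.44, which were 6.21 in batch 1 without B1, a well that was not co-positive, and 5.45 in batch 2 without well D4. The remaining genes named in that gate were Adgrg1, Rogdi, Ivns1abp, Mpc2, Atp6v1e1 and Mdh1. Without well D7 the batch 1 log2 ratios of Cystm1, Rogdi and Mpc2 were 1.05, 0.97 and 1.48, against 2.65, 2.62 and 2.22 with it, and their calls ended. Atp6v1e1, Mdh1, Mgst1 and S100a1 were not called.

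Counted over lists, without the 9 genes themselves, 6 of 13 principal cell genes were called higher in co-positive wells of each gate. In the CD45+ gate they were Tfcp2l1, Kcnj1, Hoxb7, Hsd11b2, Scnn1g and Aqp3, and 5 of the 6 calls, all but that of Tfcp2l1, ended when 1 well was left out. The batch 2 log2 ratio was 1.89 for Kcnj1 without G11, and without A11 it was -2.40 for Hoxb7, -0.20 for Hsd11b2, -0.80 for Scnn1g and -0.52 for Aqp3. The CD45- gate had calls for Aqp3, Kcnj1, Scnn1b, Gata3, Hsd11b2 and Scnn1a, of which 4 ended when 1 well was left out. Without D7 the batch 1 log2 ratio was 1.22 for Aqp3, -0.63 for Kcnj1 and -0.32 for Scnn1b, and without D4 the batch 2 ratio of Gata3 was 0.26. Hoxb7 was called lower there, with log2 ratios of -5.66 and -5.55, and is named after its values were seen. The median log2 ratios of the 13 genes were 4.81 and 4.22 in CD45+ and 4.11 and 3.38 in CD45- wells of batches 1 and 2, beside 0 for all genes in each. The CD45+ batch 2 median was -0.13 without well A11, and the CD45- batch 1 median was 0 without well D7, so both rested on 1 well. General epithelial genes were called higher in 6 of 22 (CD45+, of which 4 ended without 1 well) and 13 of 22 (CD45-, of which 5 ended).

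Families of the 9 genes gave few further calls. Of 11 other sodium pump subunits and FXYD regulators, 2 were called higher and 2 lower in the CD45+ gate, and 1 higher and 1 lower in the CD45- gate, with Fxyd2 among the higher ones in both. Of the 2 higher calls in CD45+, 1 ended when 1 well was left out. Of 9 other aquaporins, Aqp3 was called in the CD45+ gate, and Aqp3 and Aqp11 in the CD45- gate, where the batch 1 log2 ratio of Aqp11 was -1.57 without well E1. None of 9 other carbonic anhydrases was called higher in either gate. Of 4 other simple epithelial keratins, Krt7 was called in the CD45+ gate, with log2 ratios of 5.46 and 6.64 that were 4.13 without well D10 and 4.81 without well A11, and Krt7, Krt8 and Krt19 in the CD45- gate. Intercalated cell genes were called in 0 of 10 (CD45+) and 1 of 10 (CD45-, Rhcg). Of 11 other injury genes, 2 were called higher and 1 lower in the CD45+ gate, and 3 higher in the CD45- gate. Spp1 was called higher in both gates and Krt19 in the CD45- gate. The call of Krt19 ended without D7 (batch 1 log2 ratio -1.20, against 4.73 with it). Of 6 genes of the distal convoluted and connecting tubule, Calb1, a calcium-binding protein, was called in CD45+, and Calb1 and S100g in CD45-. Without D7 the CD45- batch 1 log2 ratio of S100g was 1.11, against 3.91 with it, and without A11 the CD45+ batch 2 ratio of Calb1 was -1.56, against 5.96. Of 14 proximal tubule genes, 0 were called higher in either gate, and 3 were called lower in CD45+. Urothelial genes, which mark the lining of the lower urinary tract, summed to 0 CPM in all 29 wells.

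Markers of the sorted gates were measured beside co-positive status. In the CD45+ gate, Ptprc was present in 3 of 7 co-positive and 22 of 69 other wells of batch 1, and in 1 of 4 co-positive and 19 of 74 other wells of batch 2. The 8 listed leukocyte genes summed to 1713 to 23902 CPM (median 11438) in co-positive and 655 to 67112 CPM (median 32957) in other CD45+ wells of batch 1. In batch 2 they summed to 474 to 11612 CPM (median 8697) in co-positive and a median of 25093 CPM in other CD45+ wells. Every co-positive CD45+ well thus held reads of leukocyte genes, and Pdgfrb was at 0 CPM in all 11. Lyz2, listed for macrophages, was present in 6 of 7 co-positive and 69 of 69 other CD45+ wells of batch 1. In batch 2 it was present in 4 of 4 co-positive and 73 of 74 other CD45+ wells. In the CD45- gate, Pdgfrb was present in 0 of 5 co-positive and 23 of 74 other wells of batch 1, and in 1 of 13 co-positive (A2, 844 CPM) and 19 of 69 other wells of batch 2. The 12 stromal genes had a median sum of 926 CPM in co-positive and 17526 CPM in other CD45- wells of batch 1, and of 1244 CPM and 17651 CPM in batch 2. Col1a1, among these 12, was present in 3 of 5 co-positive and 70 of 74 other CD45- wells of batch 1. In batch 2 it was present in 11 of 13 co-positive and 65 of 69 other CD45- wells. Its medians were 154 CPM in co-positive and 1338 CPM in other CD45- wells of batch 1, and 253 CPM and 1976 CPM in batch 2. Stromal genes were called lower, by 4-fold or more in both batches, in 8 of 12 in CD45+ and 7 of 12 in CD45- co-positive wells, beside 5.65% (CD45+) and 5.77% (CD45-) of all genes. In CD45- they were 12 of 12 without well A2 of batch 2, and 6 of 12 without well A3 of batch 1 or B3 of batch 2. In CD45+ the count lay between 6 and 9 of 12 when 1 well was left out, with 6 without well G12 of batch 1. Endothelial genes were called lower in 5 of 7 (CD45+) and 2 of 7 (CD45-), and neutrophil genes in 5 of 10 (CD45+) and 0 of 10 (CD45-). The epithelial gene Epcam was present in 1 of 7 and 0 of 4 co-positive CD45+ wells of batches 1 and 2. In co-positive CD45- wells it was present in 0 of 5 and 4 of 13. Among other wells it was present only in 1 of 74 CD45+ wells of batch 2. The part of these markers in the results, and whether a well held more than 1 cell, was not tested.

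Klk1 and Clu were often the only one of the 9 in a well. In the 6 CD45+ wells with Klk1 alone the leukocyte sums had a median of 28637 CPM, and in the 14 with Clu alone 32828 CPM, beside 31230 CPM in the 93 CD45+ wells with none of the 9. In the CD45- gate the stromal sums had a median of 20543 CPM in the 5 wells with Klk1 alone and 4183 CPM in the 34 wells with Clu alone, beside 20819 CPM in the 89 wells with none. Endothelial sums there had medians of 2309 CPM with Klk1 alone and 913 CPM with Clu alone, beside 142 CPM with none. Epithelial sums in that gate had medians of 1386 CPM with Klk1 alone and 47.7 CPM with Clu alone, beside 29.7 CPM with none. The 5 wells with Klk1 alone ranged from 8.85 to 4684 CPM of epithelial genes, and wells with none reached 4451 CPM. Of these sums, the gate's own markers differed most from wells with none in the CD45- wells with Clu alone. The part of endothelial and epithelial genes in the Clu and Klk1 values was not tested.

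Genes whose level ran most like each member, by Pearson r of log2(CPM + 1) over the 315 wells, are given as a description, since the wells share plates, pools and depth. Aqp2 was most like Aqp3 (r = 0.54), Fxyd4 (0.53) and Hsd11b2 (0.51), and Fxyd4 most like Aqp2, Pdzk1ip1 (0.48) and Aqp3 (0.47). Car2 was most like Atp6v1g3 (0.53 over all wells, but 0.01 in batch 1 and 0.64 in batch 2), Muc1 (0.48) and Rhcg (0.47). Klk1 had no close partner, with Ckmt1 first at 0.41, then Tmem213 (0.36) and Wfdc2 (0.34). Atp1b1 was most like Krt18 (0.51), Tmem213 (0.49) and Clu (0.48), and Krt18 like Atp1b1, Hsd11b2 (0.49) and Rhcg (0.44). Wfdc2 was most like Tmem213 (0.57), Tmem52b (0.55) and Fxyd2 (0.54). Lcn2 was most like Spp1 (0.50), Clu (0.47) and Wfdc2 (0.46), and Clu like Tmem213 (0.53), Wfdc2 (0.51) and Spp1 (0.51).

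Below 100 CPM, a read of a gene was found in 14.5% to 100% of the wells, by gene and plate. Pooled over the wells under the threshold, the genes stood at 1.15 to 30.4 CPM in CD45+ and 2.40 to 40.99 CPM in CD45- wells of batch 1, and at 0.584 to 13.9 CPM in CD45+ and 2.70 to 32.2 CPM in CD45- wells of batch 2. This was 1.10% to 10.1% of the plate level of the gene, with medians of 3.74% and 2.80% in CD45+ and 4.07% and 2.78% in CD45- wells of batches 1 and 2. Aqp2 had a read in 29 of 73 CD45+ and 56 of 75 CD45- wells under the threshold in batch 1, and in 21 of 77 CD45+ and 60 of 76 CD45- wells in batch 2. Thinned to 50000 reads, those shares were 9.59% in CD45+ and 33.3% in CD45- wells of batch 1, and 10.4% in CD45+ and 31.6% in CD45- wells of batch 2.

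Within a plate, genes with a higher plate level had more low-level reads. Across the 9 genes, the log2 background and the log2 plate level correlated within each plate (Pearson r between 0.91 and 0.99, across genes, which are not independent replicates). Between plates the genes differed. The Car2 background was 1.15 CPM in CD45+ and 2.40 CPM in CD45- wells of batch 1, and 1.47 CPM in CD45+ and 13.6 CPM in CD45- wells of batch 2, and only that last plate held wells above 10000 CPM. Krt18 did not follow its plate level in this way. Its background was 5.28 CPM in CD45- wells of batch 1 and 0.584 CPM in CD45+ wells of batch 2, at plate levels of 52.5 and 52.95 CPM. In CD45- wells of batch 2 it was 3.17 CPM, at the highest Krt18 plate level, 114 CPM. Wells in the same plate row or column as the highest well of a gene had more background than the rest for 2 of 9 genes in CD45+ and 1 of 9 in CD45- wells of batch 1, and for 6 of 9 in CD45+ and 5 of 9 in CD45- wells of batch 2. Whether reads moved between wells was not tested.

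**Figure D4:**
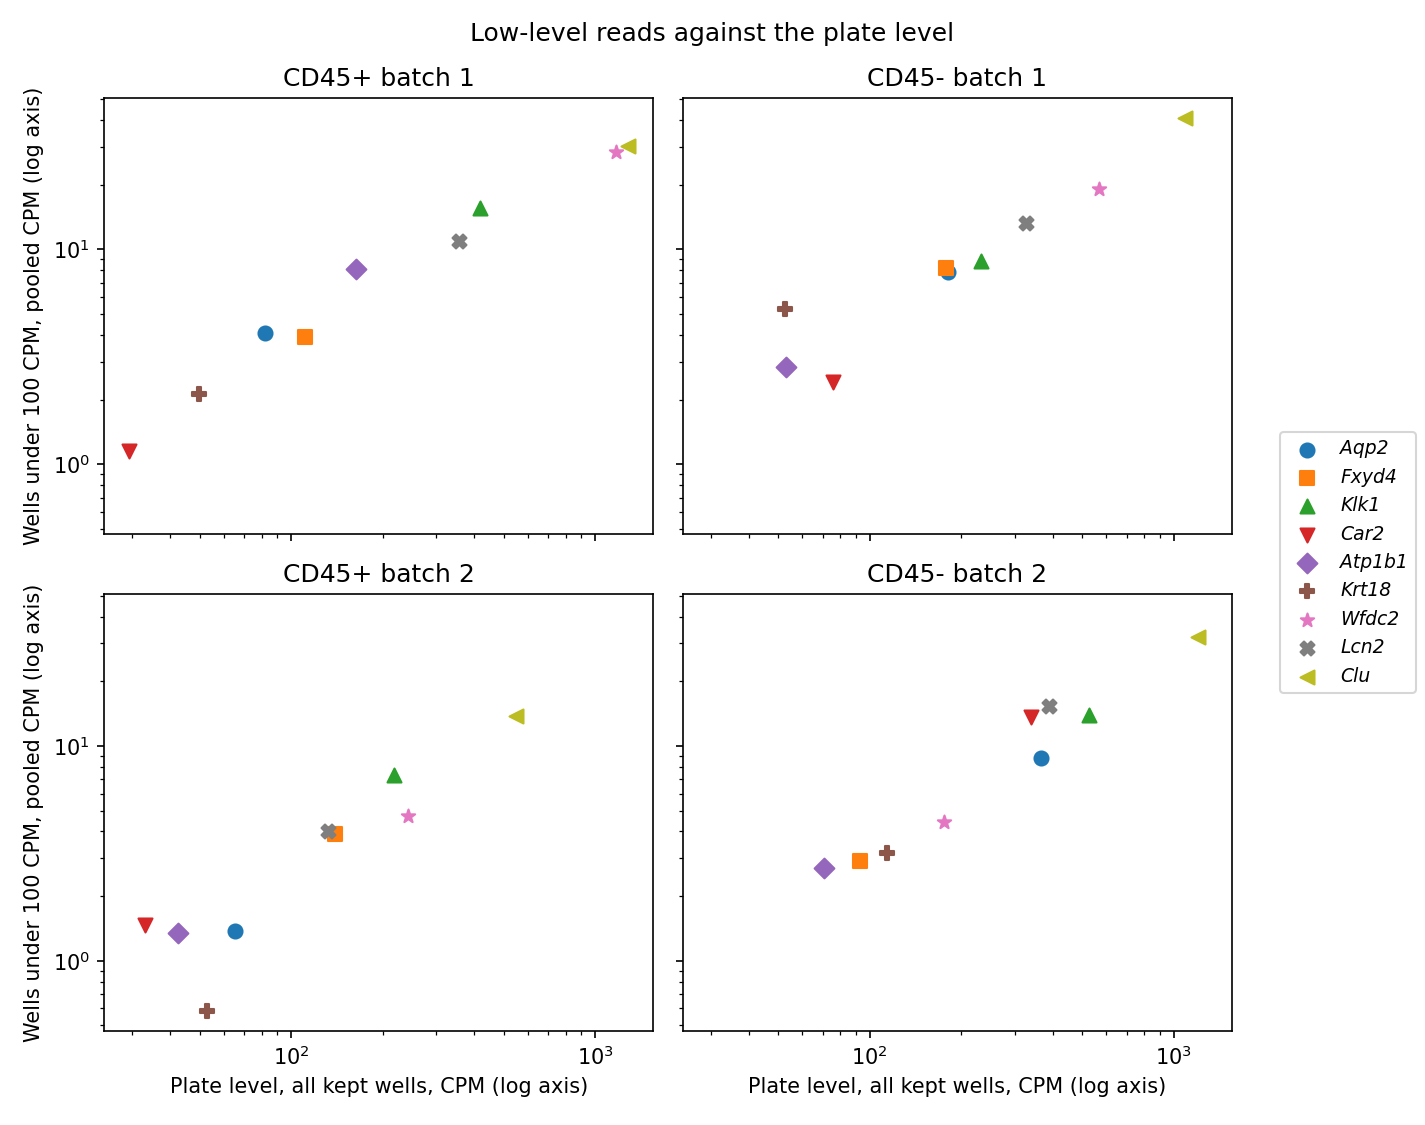
Pooled CPM of each gene in wells under 100 CPM against its plate level in CPM (both log axes), 1 panel per plate and 1 symbol per gene. Points climb from lower left to upper right in every panel; Clu is the highest on all 4 plates, at 13.9 to 40.99 CPM.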

How the data were processed

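The authors deposited raw counts, whole numbers of reads for each gene in each well, not normalized. Complementary DNA was made per well with a Clontech SMARTer kit, per the labels' protocols. STAR (listed as 3.0.4), Subread and featureCounts 1.4.5 are named in the submitters' processing notes, and the role of each, the genome build and the annotation are not given in the sources used here. No molecular identifiers were stated, so reads are not molecules, and intervals cover counting error only. Repeated lines of a gene identifier (598 in batch 1 and 595 in batch 2) were dropped.

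Plate levels are CPM of reads summed over kept wells. Gate ratios are log2 of CPM plus 1, CD45+ over CD45-, within each batch, and a gene was called at 4-fold or more in the same direction in both batches. This scale understates ratios of low genes. Co-positive wells were set against the other wells of the gate by mean CPM with wells weighted equally. Intervals of shares of wells are exact Clopper-Pearson at 95%. The counting interval of a gate ratio was built from exact Poisson limits at 95% of each plate count. It sets the low limit of one plate over the high limit of the other, and the reverse. It is therefore not a 95% interval of the ratio. The ratio and its call were run on simulated plate sums drawn with counting error only. That simulation held no differences between wells, so it cannot speak to ratios that rest on single wells. Scaling alternatives used edgeR 4.0.16 and DESeq2 1.42.0 size factors on plate sums (R 4.3.3), and the rest pandas 2.3.3 and scipy 1.17.1 in Python 3.11.15. No doublet caller was run. Cells were sorted one per well, but whether a well held more than 1 cell was not tested. Named genes were the 9 members and, for each gate, the 15 genes with the largest ratio in co-positive wells. Mitochondrial, ribosomal protein, pseudogene and predicted genes were left out of those 15. Also named were the 3 genes most like each member and the 4 most abundant genes of each marker list in co-positive wells. Pdgfrb, Ptprc, Col1a1, Lyz2, Epcam, Krt8 and Havcr1 completed the named genes. Further list genes named as called, or for single wells, were picked after their values were seen. Members and lists were chosen with earlier results of these data known. Some list genes are not reported here.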

Additional observations from a re-analysis of the deposited data

Results flagged for a closer look

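For 5 of the 9 genes, CD45+ stood above CD45- in 1 batch and below it in the other. The log2 ratio of CD45+ over CD45- in batch 2 minus that in batch 1 was 1.25 for Fxyd4, -2.113 for Klk1, -2.336 for Atp1b1, -1.664 for Lcn2 and -1.369 for Clu. These differences were not tested, since each gate had 1 plate per batch. Batch 1 ratios of Fxyd4, Klk1, Lcn2 and Clu changed sign when 1 well was left out, and so did the batch 2 ratio of Fxyd4. Those of Atp1b1 did not.

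Reads of the 9 genes were also found in the 16 wells left out for low depth. They numbered 202, at 1633 CPM of all reads in these wells, beside 1833 CPM in the 53 kept wells under 50000 reads and 2797 CPM in the 315 deeper wells. The last value rests mostly on wells at 100 CPM or more. Against the deeper wells under 100 CPM, the kept wells under 50000 reads stood higher for 9 of 9 genes on every plate. For Aqp2 in CD45- wells of batch 2 this was 239 against 8.81 CPM. These shallower wells were not split at 100 CPM, and the part of depth was not tested. By plate, the left-out wells held 85 such reads in CD45+ and 30 in CD45- wells of batch 1, and 33 in CD45+ and 54 in CD45- wells of batch 2.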

How the results depend on the processing

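None of the 9 genes was called between the gates under any of 8 other settings of scaling, pseudocount, well set or weighting. Of 144 recomputed member ratios, 89 stayed within the counting interval and 4 had another sign: Krt18 in batch 1 with TMM and DESeq2 factors, and Wfdc2 in batch 2 and Clu in batch 1 with wells weighted equally. With a pseudocount of 10 CPM, 250 genes were called higher in CD45+ and 364 in CD45-. At 50 CPM 185 member values counted as present in CD45+ wells, and 28 CD45+ wells were co-positive. At 1000 CPM 55 values in CD45+ and 71 in CD45- wells counted, and 10 CD45- wells were co-positive. With all kept wells 206 values in CD45+ and 242 in CD45- wells counted, and 27 CD45+ and 36 CD45- wells were co-positive. The wells added by that setting had under 50000 reads, so 100 CPM could rest on fewer than 5 reads there. Asking for 2 genes gave 27 co-positive CD45+ wells. Asking for 4 genes gave 7 CD45+ and 9 CD45- wells, and for 5 genes 5 of each, with 86 (CD45+) and 136 (CD45-) genes called against the other wells. With at least 2 of Aqp2, Fxyd4, Klk1 and Wfdc2, 9 CD45- wells were left, and 113 (CD45+) and 130 (CD45-) genes were called. The cause of these shifts was not tested. Of 270 recomputed ratios of leading genes, 33 lost and 5 gained their call. No paired analysis was possible because the replicate numbers only count wells and the results come from no test; each gate ratio was already taken within a batch. Each gate has 2 plates and no named animals, and at 50000 reads 100 CPM rests on 5 reads.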
